A study of Drosophila melanogaster with 4 samples.

Results

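Odorant-binding proteins are small secreted proteins that bind hydrophobic ligands in the fluid around chemosensory neurons. In Drosophila they are made by the support cells of olfactory sensilla on the antenna and of taste sensilla on the labellum, pharynx, legs and wings, and some family members are made outside the sense organs, in the fat body, glia or the male reproductive tract. The members described here are the genes whose symbol begins with Obp followed by a digit, 51 of the 16489 gene symbols in the count tables. The gene lush (also Obp76a) belongs to the same family but is listed under another symbol, so it was treated as a comparison gene. By a known site of expression, not always the main one in heads, 8 were listed as antennal, 8 as gustatory, 3 as fat body type and 6 as seminal fluid members, and the other 26 were placed in no class. The sites overlap: Obp56d, listed as antennal, is also found in taste organs, and Obp19d, placed in no class, is found in both antennae and taste bristles.

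Read counts came from whole adult heads of Drosophila melanogaster with 2 genotypes. In GMR>yki S168A heads (n = 2 libraries) the GMR-Gal4 driver, whose main site of activity is the developing eye, expressed a form of the transcriptional co-activator Yorkie that lacks a serine at which the kinase Warts of the Hippo pathway inhibits it; the design text calls this tumor tissue. Control heads carried GMR-Gal4 without that transgene (n = 2 libraries). Each library was made from 30 heads. The sources used here give neither the sex nor the age of the flies, nor whether libraries came from separate crosses, so the spread behind each p-value may be technical. Libraries held 17311383 and 18108814 counts in yki S168A and 16817968 and 15738860 counts in control, so 3 counts correspond to 0.170 to 0.184 CPM. CPM are a library's counts scaled to a common total, here after trimmed mean of M-values (TMM) normalization. Each gene was tested across all 10896 genes that passed a filter on low counts, with edgeR's quasi-likelihood test and Benjamini-Hochberg adjustment at 0.05. The yki gene itself had 32.2 and 27.2 CPM in yki S168A libraries, against 12.4 and 18.4 CPM in control libraries (log2 fold change 0.95 ± 0.23 SE, adjusted p = 0.0112), a count that does not tell the transgene from the resident gene. On simulated data the false calls of this test exceeded the nominal rate (13.5% of calls), so adjusted p-values may be too small, and calls close to 0.05 are weak. Since whole heads were sampled, fewer cells of a type and less RNA per cell cannot be told apart.

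In heads with yki S168A, 3 of the 4 antennal members that passed the filter through both groups were lower. The taste genes Obp57a and Obp57b were 1.96-fold and 2.10-fold higher, whereas the taste genes Obp49a and Obp56g were 1.49-fold and 1.44-fold lower. The fat body type gene Obp99a was 9.14-fold lower, and Obp99b and Obp99c of the same class were not called. Obp99d, a member of no class, was 22.01-fold higher. Of the 51 members, 42 had at least 1 count and 33 passed the filter. Of these 33, 7 were higher and 13 lower at an adjusted p below 0.05, beside 15.1% higher and 12.5% lower (27.6% either way) among all genes tested. Of the 29 with at least 1 library of each group above the filter's cut (0.586 CPM before TMM scaling), 7 were higher and 9 lower. Among the 33 tested members, the libraries of the groups did not overlap for 8 that were higher and 18 that were lower, beside 32.1% and 31.2% of all genes. The 18 include Obp19a, Obp59a, Obp69a and Obp84a. These passed the filter only because of their control libraries, so they had to differ to be tested. The median log2 fold change of the 33, with these genes included, was −0.41, and that of all tested genes 0.01. With upper-quartile scaling, which moved the median of all genes to −0.15, 5 members were higher and 16 lower; over all genes that scaling called 1276 higher and 1924 lower, against 1647 and 1359 with TMM. Without control replicate 1 the numbers were 6 higher and 4 lower, and without control replicate 2 they were 4 and 5, while the calls over all genes were 1634 and 1696, beside 3006 with all libraries. The calls of 7 members held under each of the 13 alternative settings, namely Obp57a, Obp57b, Obp57d and Obp99d, higher, and Obp83a, Obp83b and Obp99a, lower. The counts of Obp57d are not separable from those of Cpr57A, a cuticle protein gene that shares all of its exonic bases.

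**Figure D1:**
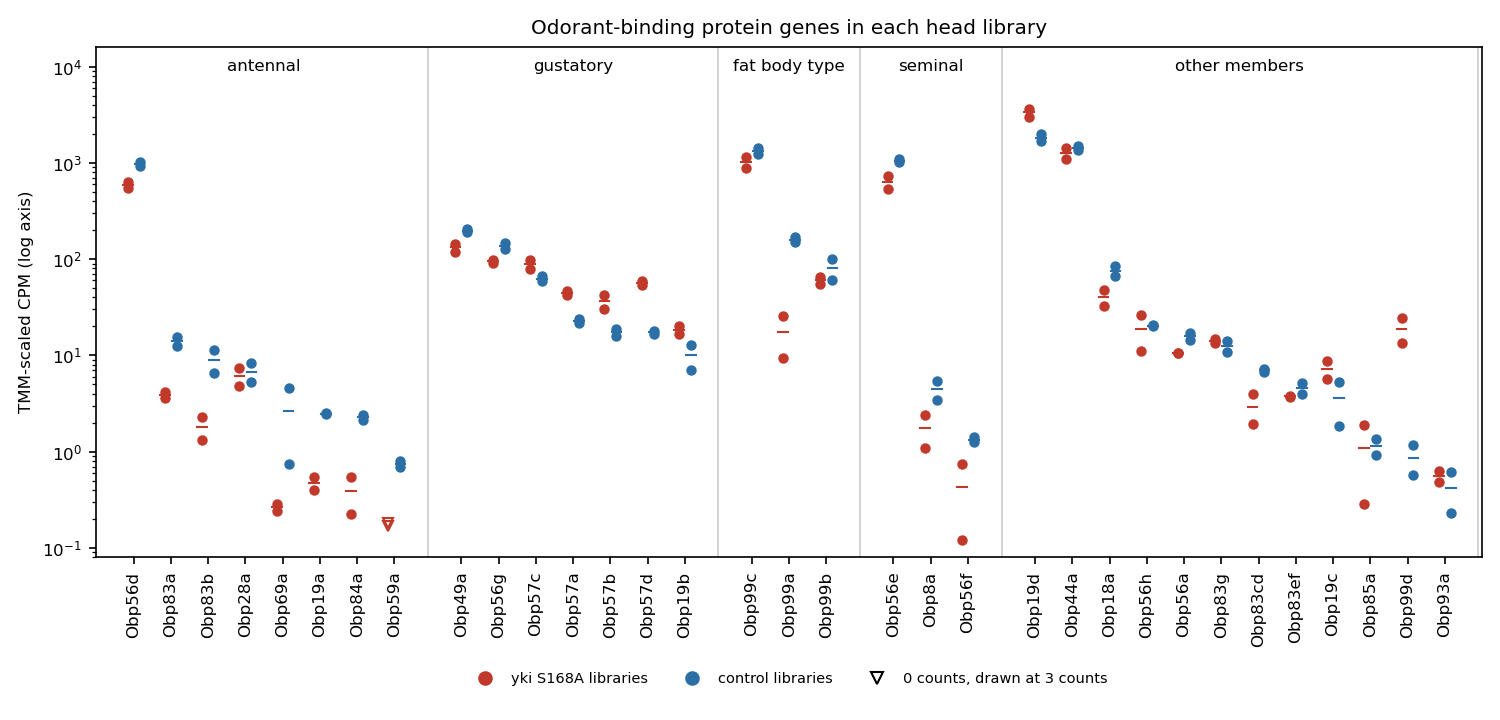
TMM-scaled CPM (log axis) of the 33 tested members in each library, red for the 2 yki S168A and blue for the 2 control libraries, with a short line at each group mean; open triangles stand for 0 counts, drawn at 3 counts. Levels run from under 1 CPM to 3672 CPM (Obp19d), and antennal members other than Obp56d lie below 20 CPM in all 4 libraries.

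The summed level of the family was 7824 and 7253 CPM in yki S168A libraries and 7503 and 7539 CPM in control libraries, so the groups overlapped. In counts without TMM scaling, the family took 0.745% and 0.706% of each yki S168A library and 0.782% and 0.781% of each control library. On that scale the groups did not overlap. Obp19d, Obp44a, Obp99c, Obp56e and Obp56d together held 90.7% and 91.2% of the family's counts in yki S168A libraries and 87.8% and 88.6% in control libraries. Per kilobase of exon, the highest mean levels in yki S168A heads were those of Obp19d (3040 CPM per kb), Obp99c (1525), Obp56e (1200), Obp44a (1169) and Obp56d (641). In control heads the same genes led in another order, with Obp99c at 1997, Obp56e at 1980, Obp19d at 1666, Obp44a at 1326 and Obp56d at 1065 CPM per kb. The antennal marker gene Obp83a was at 3.95 CPM per kb in yki S168A heads and at 14.2 CPM per kb in control heads.

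Of the 8 members listed as antennal, 7 were lower and 0 higher, beside 12.5% lower and 15.1% higher among all genes tested. Obp19d, which is also found in the antenna and was higher, is not among them. Of the 8, 4 (Obp19a, Obp59a, Obp69a and Obp84a) passed the filter only because of their control libraries, so they had to differ to be tested. Of the 4 that passed through both groups, 3 were lower. The median log2 fold change of the 8 was −2.18 with Obp59a at its bound, which these 4 genes help to set. Antennal calls numbered 4 without yki S168A replicate 1, 3 without yki S168A replicate 2, 3 without control replicate 1 and 2 without control replicate 2, and 3 with a stricter filter. Obp83a (FBgn0011281, chromosome 3R, 5972155 to 5975245, minus strand, build dm6) encodes a binding protein of the lymph of olfactory sensilla. It had 3.64 and 4.14 CPM in yki S168A libraries, against 15.6 and 12.5 CPM in control libraries. Both yki S168A libraries lay below both control libraries, a 3.60-fold difference (log2 fold change −1.85 ± 0.32 SE, adjusted p = 0.00133). Its neighbor Obp83b (FBgn0010403, 3R, 5976177 to 5976817, minus strand), whose product shares those sensilla, had 1.33 and 2.27 CPM in yki S168A libraries and 6.51 and 11.3 CPM in control libraries. Obp83b was 4.88-fold lower without overlap (log2 fold change −2.29 ± 0.47 SE, adjusted p = 0.00395).

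Obp56d, found in both antennae and taste organs, was the most abundant of the antennal members. It had 633 and 549 CPM in yki S168A libraries and 933 and 1032 CPM in control libraries. The groups did not overlap, and the 1.66-fold fall had an adjusted p of 0.00571, which became 0.0531 without control replicate 1 and 0.117 without control replicate 2. Obp28a, an abundant antennal protein, had 4.79 and 7.32 CPM in yki S168A libraries, against 5.31 and 8.28 CPM in control libraries. These ranges overlapped, and the log2 fold change was −0.15 (95% interval −0.98 to 0.67, adjusted p = 0.810).

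The remaining antennal members had few counts. Obp19a had 9 and 7 counts in yki S168A libraries and 44 and 40 in control libraries (log2 fold change −2.39 ± 0.68 SE, adjusted p = 0.0225). Obp84a had 9 and 4 counts in yki S168A libraries and 42 and 35 in control libraries (−2.55 ± 0.74 SE, adjusted p = 0.0235). Both genes passed the filter only because of their control libraries, so their groups had to stand apart. The Obp19a call was lost on leaving out any single library, and that of Obp84a was lost without either control replicate or yki S168A replicate 2. Without yki S168A replicate 1 the log2 fold change of Obp84a was −3.29. Obp69a, an antennal protein linked to pheromone responses, had 4 and 5 counts in yki S168A libraries and 13 and 74 in control libraries, so the control level rested largely on replicate 2. The fitted log2 change was −3.26 ± 1.05 SE (adjusted p = 0.0387), it was −4.07 without control replicate 1, and it was −1.47 without control replicate 2 (adjusted p = 0.607), and the call was also lost without either yki S168A library, without the filter and with limma-voom. Obp59a, which acts in humidity sensing in the antenna, had 0 counts in both yki S168A libraries and 12 and 13 in control libraries, which makes it at least 4.21-fold lower when 3 counts per library are taken as the floor (adjusted p = 0.0460). That call was lost without either yki S168A library and without the filter, and Obp59a did not pass the filter without either control library.

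Other genes of the antenna were scarce in all 4 libraries. The odorant co-receptor gene Orco, used by most olfactory receptor neurons, had 0 and 10 counts in yki S168A libraries and 17 and 24 in control libraries (log2 fold change −2.02 ± 1.01 SE, adjusted p = 0.165). Orco passed the filter only because of its control libraries, so it had to differ to be tested. Of 7 antennal perireceptor genes (lush, Os-C, a10, a5, Snmp1, Snmp2 and Amt), 6 were tested, with 3 lower and 0 higher, and Amt, listed as CG6499, was at 0 in every library. Among all genes tested, 12.5% were lower and 15.1% higher. The a5 gene, which encodes an antennal protein, had 0.303 and 1.59 CPM in yki S168A libraries, against 8.39 and 7.67 CPM in control libraries (adjusted p = 0.00163). The a10 gene, for an antennal chemosensory protein, had 3.88 and 3.52 CPM in yki S168A libraries, against 10.4 and 14.97 CPM in control libraries (adjusted p = 0.00279). The lush gene, whose product is needed for pheromone responses, was at 7.52 and 7.03 CPM in yki S168A libraries and 1.03 and 6.63 CPM in control libraries, and was not called (log2 fold change 0.95 ± 0.56 SE, adjusted p = 0.246). The summed level of the perireceptor genes was 49.2 and 45.7 CPM in yki S168A libraries and 59.3 and 80.8 CPM in control libraries. The part of antennal tissue content in the levels of the antennal members was not tested.

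Chemosensory receptor genes were mostly below the filter. Of 60 odorant receptor genes, 10 were tested, with 1 higher and 0 lower, beside 15.1% higher and 12.5% lower among all genes tested. The higher one was Or47a, with 148 and 342 counts in yki S168A libraries and 70 and 46 in control libraries (adjusted p = 0.00426). Or63a was at 0.303 and 0.737 CPM in yki S168A libraries and 1.54 and 1.66 CPM in control libraries (adjusted p = 0.139). Of 60 ionotropic receptor genes, 7 were tested and 0 called by edgeR, with Ir68a (adjusted p = 0.0564) and the co-receptor gene Ir76b (adjusted p = 0.0683) nearest the threshold. Ir68a had 7 and 3 counts in yki S168A libraries and 44 and 15 in control libraries. Ir76b had 0 and 10 counts in yki S168A libraries and 25 and 33 in control libraries. Ir68a and Ir76b both passed the filter only because of their control libraries, so they had to differ to be tested.

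Gustatory members changed in both directions. Of 8, 7 were tested, 5 were higher and 2 lower, beside 15.1% higher and 12.5% lower among all genes tested. The median log2 fold change of the 7 was 0.87. The remaining member, Obp57e, had 6 and 7 counts in yki S168A libraries and 6 and 4 in control libraries and did not pass the filter. Gustatory calls numbered 4 without control replicate 1 and 3 without control replicate 2. Obp57a, Obp57b and Obp57c, expressed in taste sensilla, lie head to tail on the plus strand of chromosome 2R between 20503584 and 20505758, with 48 and 13 bases between neighbors. Obp57a (FBgn0043535) had 42.8 and 46.7 CPM in yki S168A libraries, against 21.7 and 24.1 CPM in control libraries (1.96-fold, adjusted p = 0.00193). Obp57b (FBgn0043534) had 42.4 and 30.5 CPM in yki S168A libraries, against 18.8 and 15.9 CPM in control libraries (2.10-fold, adjusted p = 0.00396). Obp57c (FBgn0034509) had 97.7 and 79.3 CPM in yki S168A libraries, against 66.0 and 59.3 CPM in control libraries (1.41-fold, adjusted p = 0.0391). For all 3 genes both yki S168A libraries lay above both control libraries. The Obp57c call was lost with upper-quartile scaling (adjusted p = 0.139), without the filter, with DESeq2 and on leaving out yki S168A replicate 1 or either control library.

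Obp57d, which with Obp57e shapes the taste response to fatty acids of host fruit, had 59.5 and 54.1 CPM in yki S168A libraries and 18.0 and 16.7 CPM in control libraries. This was a 3.27-fold difference (log2 fold change 1.71 ± 0.18 SE, adjusted p = 3.24e-05), with no overlap between groups. In the dm6 annotation, however, all of the exonic bases of Obp57d are shared on the same strand with Cpr57A, a cuticle protein gene. Cpr57A carried 861 and 831 counts in yki S168A libraries and 296 and 232 in control libraries, beside 980 and 954 for Obp57d in yki S168A libraries and 315 and 272 in control libraries. The reads listed for Obp57d may thus be those of the cuticle gene, and the pair is not separable in these counts.

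Obp19b, a labellar member, had 16.6 and 20.2 CPM in yki S168A libraries and 12.8 and 7.12 CPM in control libraries. The 1.83-fold rise (adjusted p = 0.0469) was close to the threshold and was lost under 7 settings, among them RLE scaling (adjusted p = 0.0539) and DESeq2 (adjusted p = 0.0606), and without yki S168A replicate 2 (adjusted p = 0.140) or control replicate 2 (adjusted p = 0.349). Obp49a, which is made by support cells of taste sensilla and lets bitter compounds suppress sweet responses, went the other way, at 145 and 119 CPM in yki S168A libraries and 189 and 203 CPM in control libraries (1.49-fold lower, adjusted p = 0.0149). Obp56g, which is found in the labellum and also in seminal fluid, had 98.7 and 92.2 CPM in yki S168A libraries and 147 and 129 CPM in control libraries (1.44-fold lower, adjusted p = 0.0184). Both of these falls passed with all libraries but not without control replicate 1 (adjusted p = 0.0746 for Obp49a and 0.228 for Obp56g) or control replicate 2 (0.144 and 0.0659).

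The summed gustatory level was 503 and 443 CPM in yki S168A libraries and 474 and 455 CPM in control libraries, so the groups overlapped while single members differed. Of 60 gustatory receptor genes, 8 were tested, with 1 lower and 0 higher, beside 12.5% lower and 15.1% higher among all genes tested. The lower one, Gr59f, had 0 counts in both yki S168A libraries and 18 and 25 in control libraries, at least 7.27-fold lower with 3 counts in each library as the floor (adjusted p = 0.0178). Gr59f passed the filter only because of its control libraries, so it too had to differ to be tested. The fructose receptor gene Gr43a had 15.4 and 14.8 CPM in yki S168A libraries and 9.76 and 10.7 CPM in control libraries (adjusted p = 0.117). Of 20 CheA and CheB genes, which encode secreted proteins of contact chemosensory hairs, 8 were tested and 0 called by edgeR, the smallest adjusted p being 0.331, for CheB93a, and 0.416, for CheA84a. CheB93a also passed the filter only because of its control libraries.

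**Figure D2:**
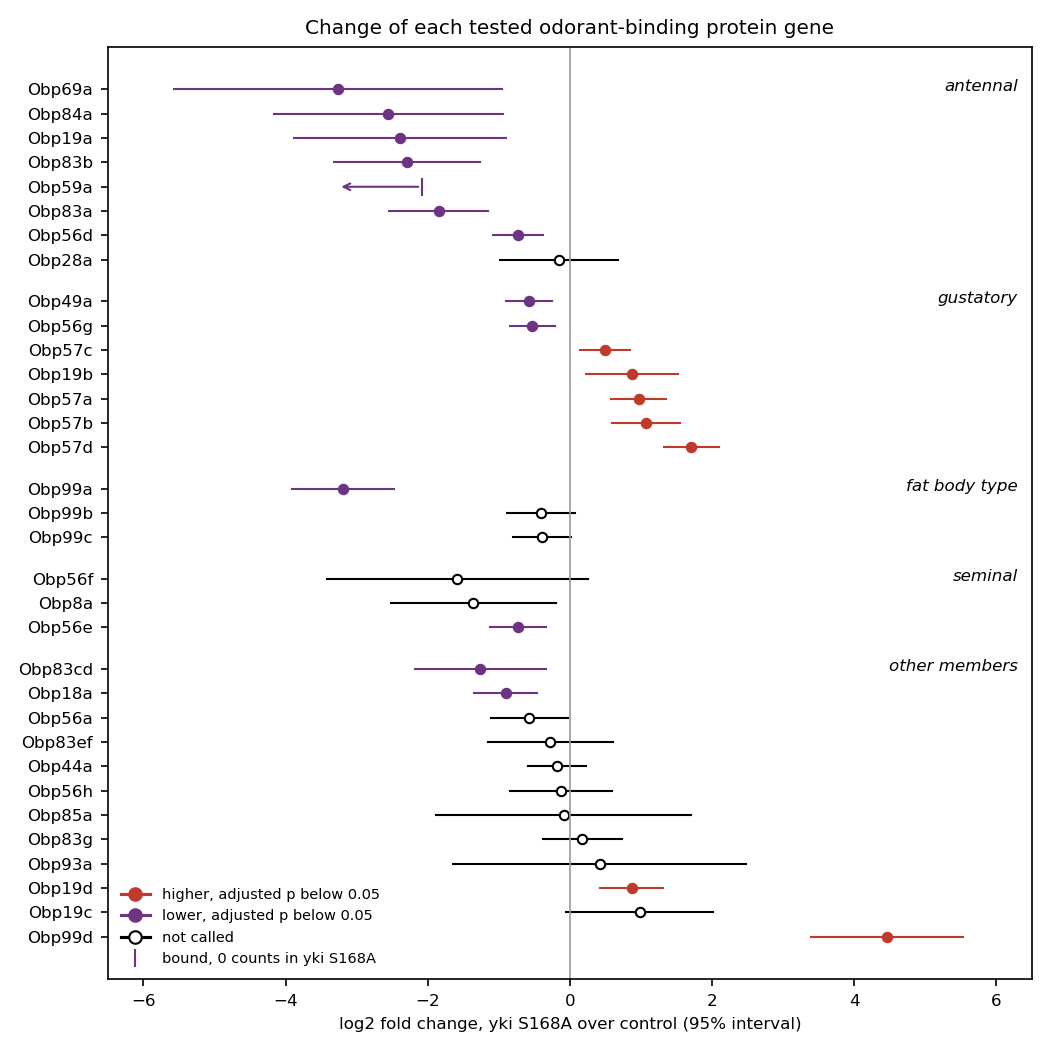
Log2 fold change (yki S168A over control) with its 95% interval for each of the 33 tested members, by class; red and purple mark members higher and lower at an adjusted p below 0.05, open circles those not called, and the arrow the bound for Obp59a. Antennal members lie to the left, from −3.26 (Obp69a) to −0.15 (Obp28a), whereas gustatory members run from −0.57 (Obp49a) to 1.71 (Obp57d). The counts of Obp57d are not separable from those of the cuticle protein gene Cpr57A. Obp19a, Obp59a, Obp69a and Obp84a passed the filter only because of their control libraries, so they had to differ to be tested.

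Of the 3 fat body type members, 1 was lower and 2 were not called, beside 12.5% lower and 15.1% higher among all genes tested. The median log2 fold change of the 3 was −0.41. Obp99a (FBgn0039678, chromosome 3R, 29671657 to 29672334, plus strand) had 25.6 and 9.30 CPM in yki S168A libraries, against 149 and 168.4 CPM in control libraries. The groups were far apart, with a log2 fold change of −3.19 ± 0.33 SE (9.14-fold lower, adjusted p = 3.32e-05), which became −4.09 without yki S168A replicate 1 and −2.63 without yki S168A replicate 2. Obp99b (FBgn0039685, 3R, 29716254 to 29716896, minus strand), which is expressed in male head fat body under the sex determination pathway, had 54.9 and 65.5 CPM in yki S168A libraries and 99.8 and 60.2 CPM in control libraries. Those ranges overlapped (log2 fold change −0.41, 95% interval −0.89 to 0.07, adjusted p = 0.193). Obp99c (FBgn0039682, 3R, 29685736 to 29689311, minus strand), the most abundant of the 3, had 1159 and 881 CPM in yki S168A libraries and 1442 and 1230 CPM in control libraries (log2 fold change −0.39, 95% interval −0.80 to 0.02, adjusted p = 0.1503). It was called lower with upper-quartile scaling and without yki S168A replicate 1, and Obp99b was called lower without control replicate 2. Whether Obp99a differed from Obp99b and Obp99c in its change was not tested.

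Fat body and yolk protein genes were lower together with Obp99a. Of 9 fat body marker genes (Rfabg, Lsp2, fit, to, Lsd-1, CG3523, AkhR, Pepck and Adh), 7 were lower and 0 higher, beside 12.5% lower and 15.1% higher among all genes tested. The log2 fold changes of the 9 had a median of −0.94, and none of these genes was at 0. Their summed level was 9446 and 7579 CPM in yki S168A libraries and 15966 and 14386 CPM in control libraries. Pepck, a gluconeogenesis enzyme gene, had 324 and 436 CPM in yki S168A libraries and 1534 and 1621 CPM in control libraries (adjusted p = 1.33e-05). AkhR, for the adipokinetic hormone receptor of the fat body, had 9.28 and 5.78 CPM in yki S168A libraries and 20.4 and 22.2 CPM in control libraries (adjusted p = 0.00197). All 3 yolk protein genes, which are female-specific products of the fat body, were lower, with Yp1 at 7320 and 5121 CPM in yki S168A libraries and 19973 and 23961 CPM in control libraries (adjusted p = 0.00148), Yp3 at 4348 and 2120 CPM in yki S168A libraries and 10623 and 11240 CPM in control libraries (adjusted p = 0.00235), and their sum at 22194 and 13596 CPM in yki S168A libraries and 56677 and 67311 CPM in control libraries. Of the male markers roX1, roX2 and msl-2, 0 were called by edgeR; roX1, a dosage compensation RNA, had 2314 and 1653 CPM in yki S168A libraries and 2295 and 2113 CPM in control libraries (adjusted p = 0.637), and roX2 had 13.7 and 12.9 CPM in yki S168A libraries and 12.7 and 9.88 CPM in control libraries (adjusted p = 0.554). The part of fat body content and of the sex ratio in the level of Obp99a was not tested.

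**Figure D3:**
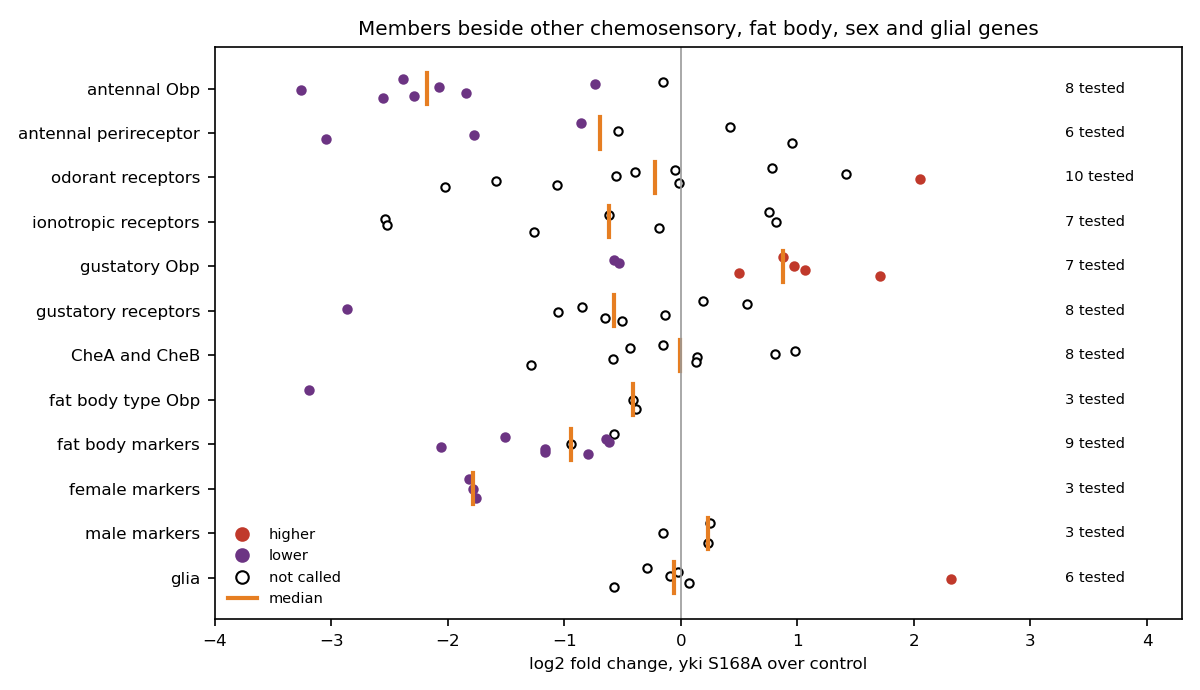
Log2 fold change (yki S168A over control) of each tested gene in the 3 main classes of members and in the comparison lists; filled points are called, open ones are not, the orange bar is the list's median, and genes at 0 counts in yki S168A stand at their bound. Calls below 0 were made for 7 antennal members, 3 antennal perireceptor genes, 7 fat body markers and the 3 yolk protein genes, and the called gustatory members lie on both sides. Obp28a, Lsp2 and Adh were not called, and the perireceptor genes lush and Snmp1 lie above 0 without a call. Of the called antennal members, Obp19a, Obp59a, Obp69a and Obp84a passed the filter only because of their control libraries.

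Members placed in no class included Obp99d, which had the largest rise among the called members, and Obp19d, which had the highest CPM, though not the highest level per kb in control heads. Obp99d (FBgn0039684, 3R, 29714505 to 29715004, plus strand) had 13.6 and 24.4 CPM in yki S168A libraries, against 0.571 and 1.17 CPM in control libraries. In counts these were 224 and 430 in yki S168A libraries and 10 and 19 in control libraries. The groups did not overlap, and the log2 fold change of 4.46 ± 0.49 SE had an adjusted p of 5.16e-05. Leaving out single libraries gave values from 3.97 to 5.04. Obp99b lies 1249 bases away on the opposite strand, and its log2 fold change was −0.41.

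Obp19d (FBgn0011280, chromosome X, 20419613 to 20420979, plus strand), which is found beneath the antennal cuticle and in taste bristles, had 3672 and 3022 CPM in yki S168A libraries, against 1693 and 1975 CPM in control libraries. The 1.82-fold rise (adjusted p = 0.00818) was not called without control replicate 1 (adjusted p = 0.257) or control replicate 2 (adjusted p = 0.128), although the groups stood apart. Obp44a, which is expressed in glia, had 1091 and 1425 CPM in yki S168A libraries, against 1495 and 1358 CPM in control libraries, and was not called (log2 fold change −0.18, 95% interval −0.59 to 0.22, adjusted p = 0.516). Of 6 glial genes, 1 was higher and 0 lower, beside 15.1% higher and 12.5% lower among all genes tested. The higher one, moody, a receptor gene of the blood-brain barrier, had 194 and 200 CPM in yki S168A libraries and 39.6 and 39.3 CPM in control libraries (adjusted p = 7.98e-07). The wrapper gene had 14.99 and 19.2 CPM in yki S168A libraries and 22.9 and 28.1 CPM in control libraries (adjusted p = 0.0758).

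Obp18a had 48.1 and 33.0 CPM in yki S168A libraries and 84.2 and 66.9 CPM in control libraries (1.87-fold lower, adjusted p = 0.00660, and 0.0627 without control replicate 1). Obp83cd had 3.94 and 1.93 CPM in yki S168A libraries and 6.74 and 7.24 CPM in control libraries (2.40-fold lower, adjusted p = 0.0453). The log2 fold change was −1.26, and −1.85 without yki S168A replicate 1. That call was lost under 6 settings, DESeq2 (adjusted p = 0.0550) and leaving out yki S168A replicate 2 or either control library among them. The other 8 tested genes outside the classes, Obp44a among them, were not called.

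Of these, Obp19c was at 7.18 ± 2.21 CPM in yki S168A heads and 3.57 ± 2.45 CPM in control heads (SD, n = 2 each). Obp56a was at 10.7 ± 0.0117 CPM in yki S168A heads and 15.9 ± 1.95 CPM in control heads. Obp56h, whose knockdown in males shortens the time to mating, was at 18.7 ± 10.7 CPM in yki S168A heads and 20.2 ± 0.362 CPM in control heads. For these 3 genes the log2 fold changes were 0.98, −0.57 and −0.12, and the Obp56h libraries of yki S168A lay on either side of both control libraries. Obp83ef was at 3.75 ± 0.0698 CPM in yki S168A heads and 4.53 ± 0.856 CPM in control heads, and Obp83g at 14.0 ± 0.948 CPM in yki S168A heads and 12.4 ± 2.29 CPM in control heads. Obp85a had 31 and 5 counts in yki S168A libraries and 16 and 22 in control libraries, and Obp93a had 8 and 11 in yki S168A libraries and 4 and 10 in control libraries. Their changes had 95% intervals of −1.88 to 1.71 and −1.64 to 2.48 on the log2 scale, and neither was called.

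Of the 6 seminal fluid members, 3 were tested and 1 was lower, beside 12.5% lower among all genes tested. In control heads Obp56e ranked 2 among the 51 members per kb (1980 CPM per kb). Its class is that of a site outside the head, and the source of its head reads was not tested. Obp56e had 541 and 736 CPM in yki S168A libraries and 1022 and 1085 CPM in control libraries (1.65-fold lower, adjusted p = 0.0118). Leaving out either control library ended that call (adjusted p = 0.0802 for replicate 1 and 0.125 for replicate 2). Obp8a, at 2.43 and 1.08 CPM in yki S168A libraries and 5.42 and 3.44 CPM in control libraries, was not called (adjusted p = 0.0790), and neither was Obp56f, with 2 and 13 counts in yki S168A libraries and 22 and 23 in control libraries (adjusted p = 0.191). Obp22a and Obp51a had 0 counts in all libraries and Obp56i had 1 count in all. The 11 accessory gland genes, markers of the tissue that makes seminal fluid, none of which passed the filter and 2 of which were at 0, summed to 38 and 7 counts in yki S168A libraries and 13 and 23 in control libraries.

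The counts of 3 called members overlap other genes over at least 80% of their exonic bases. Besides Obp57d, Obp56e lies opposite an antisense RNA gene over 84.4% of its exonic bases. That gene, listed as CR44509, had 8557 and 12560 counts in yki S168A libraries and 17204 and 17040 in control libraries, close to the 8910 and 12971 counts of Obp56e in yki S168A libraries and 17905 and 17681 in control libraries. Obp84a lies opposite Dtwd2, listed as CG10050, over 81.2% of its exonic bases, and CG10050 had 10 and 22 counts in yki S168A libraries and 63 and 44 in control libraries. The strand setting of the counting is not given in the sources used here, so the reads of such pairs cannot be assigned to 1 gene. Smaller opposite-strand overlaps touch Obp59a (22.2% of its exonic bases, with CG30259) and Obp44a (19.05%, with Pabp2). Others touch Obp83cd and Obp83ef (10.2% each, with one another), Obp69a (9.71%, with CG32104) and Obp99c (3.44%, with Gycalpha99B). Obp93a, tested but not called, lies opposite CG5793 over 83.25% of its exonic bases. Leaving the 3 called members aside, 6 were higher and 11 lower.

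Of the 51 members, 31 lie within 10000 bases of another, in 9 groups, and 20 stand alone. In the group of Obp19a, Obp19b, Obp19c and Obp19d, which spans 5236 bases of chromosome X, the first gene was lower, the second and the fourth were higher and the third was not called. In the pair Obp83a and Obp83b both were lower, whereas of the group Obp83cd, Obp83ef and Obp83g, 131316 bases further along, only Obp83cd was. In the group from Obp56a to Obp56f on chromosome 2R, Obp56d and Obp56e were lower, Obp56a and Obp56f were not called, and Obp56b and Obp56c had no more than 6 counts in any library. All 5 genes from Obp50a to Obp50e had no more than 4 counts in any library. Of the 18 members that did not pass the filter, 9 had 0 counts throughout, and the highest value in the other 9 was 10 counts, for Obp58d in yki S168A replicate 1, with 0 in the other libraries.

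**Figure D4:**
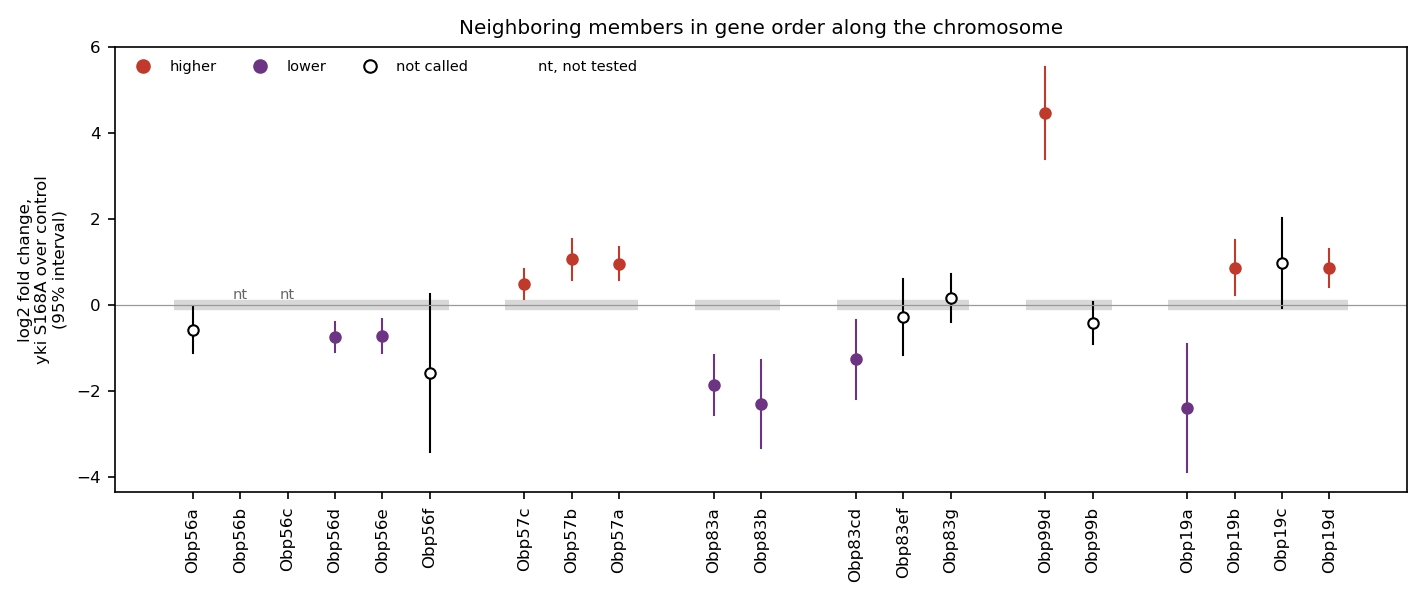
Log2 fold change (yki S168A over control) with its 95% interval for neighboring members in gene order, where each gray bar is a group with less than 10000 bases between neighbors and at least 2 tested genes. Obp57c, Obp57b and Obp57a are all above 0 and Obp83a and Obp83b both below it, while the Obp19 group and the pair Obp99d and Obp99b hold genes on both sides.

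**Figure D5:**
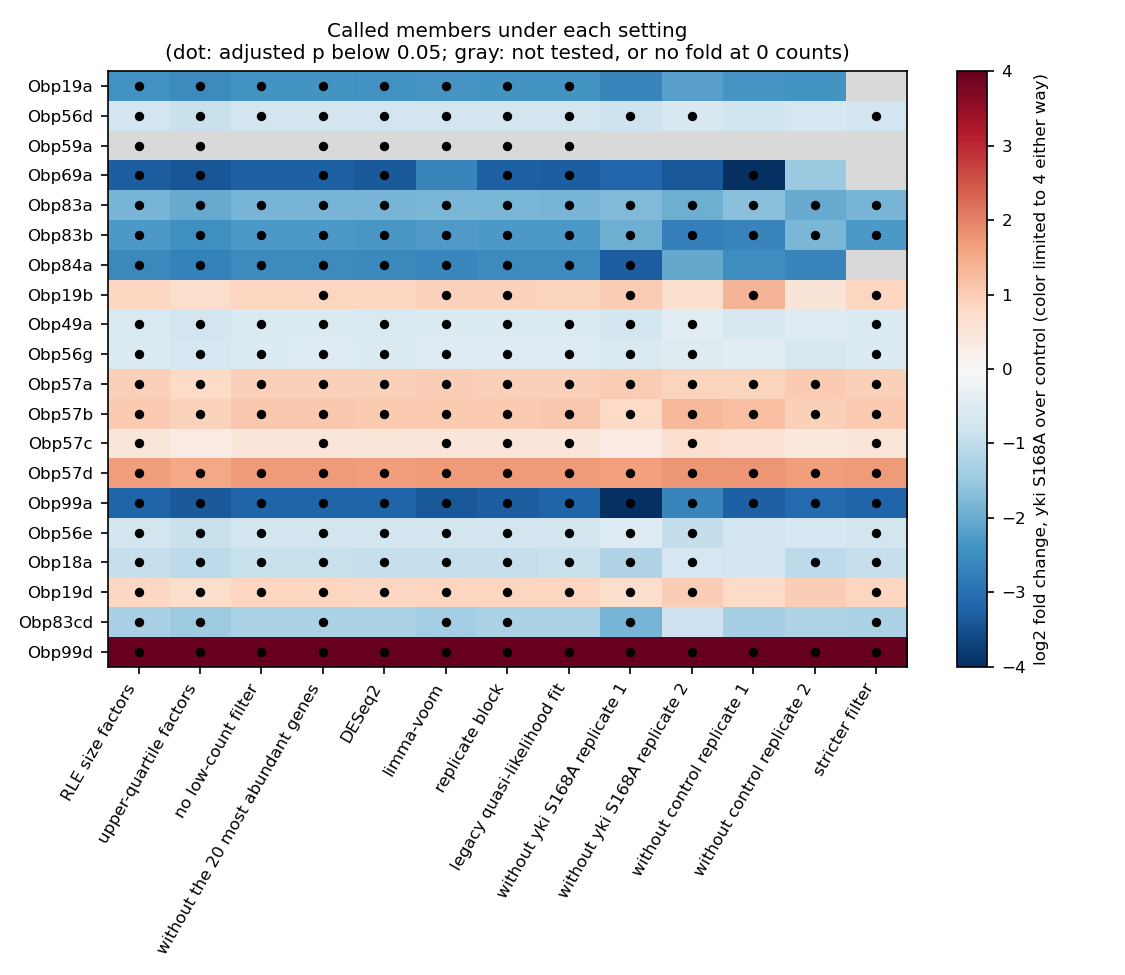
Log2 fold change (yki S168A over control, color) of the 20 called members under each of the 13 alternative settings; a dot marks an adjusted p below 0.05, and gray marks a gene that was not tested or, for Obp59a, has no fold because of 0 counts. Dots fill the whole row for 7 members, and gaps in the other rows fall mostly under the settings that leave out a library.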

How the data were processed

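Libraries were made from total RNA of 30 adult heads each with the Lexogen SENSE mRNA kit, per the labels' protocols. For each library the authors deposited whole-number read counts by gene symbol. The submitters' processing notes name dm6 as the build; aligner, counting tool and strand setting were not given in the sources used here. Of 16509 lines, 37 shared 17 symbols (0 of them Obp genes) and were summed.

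The tests ran in edgeR 4.0.16 under R 4.3.3, with filterByExpr (minimum count 10), TMM, estimateDisp and glmQLFit (not the legacy fit, which is an alternative), yki S168A over control, with 2 residual and 9.2 prior degrees of freedom. SE is the size of the log2 fold change divided by the root of F. The test was run on simulated data, where it recovered most changed genes but made more false calls than its nominal rate. Gene positions and exon overlaps came from the Ensembl release of BDGP6 (dm6 coordinates), in which all 51 members were found; levels per kb use all exonic bases of a gene. Floors (3 counts) and intervals cover counting error and the fitted spread between libraries; no molecular identifiers are named. Other settings tried were scaling by RLE or upper quartile, no filter, a stricter filter, leaving out the 20 most abundant genes, DESeq2 1.42.0, limma-voom (limma 3.58.1), a replicate block, the legacy fit and each library left out.

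Classes and comparison lists were written from textbook expression sites, and members and lists were chosen with earlier results of these data known. Every member that passed the filter is named; of each comparison list, the 2 genes with the smallest p, and Orco, lush, Yp1 and roX1. Sequences are not used here.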

Additional observations from a re-analysis of the deposited data

How the results depend on the processing

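All 20 called members kept their direction under each of the 13 settings in which they were tested. With any single library left out, the calls over all genes numbered 1634 to 3123, members higher 4 to 6 and lower 4 to 12, antennal calls 2 to 4, gustatory calls 3 to 6 and fat body type calls 1 to 2; the lowest numbers of members called came without a control library, and the cause was not tested. In these fits the lone library is assumed to vary like the other group. The stricter filter (minimum count 50) left 3 antennal calls, since fewer genes were tested. Upper-quartile scaling gave 2 fat body type calls, with all log2 fold changes moved downward. Direction reversed in 5 members that were not called: Obp28a (−0.50 to 0.19 with 1 library left out), Obp56h (−0.87 to 0.37), Obp83g (−0.0038 to 0.37), Obp85a (−1.96 to 0.74) and Obp93a (−0.14 to 1.26). Replicate numbers are shared by the groups in the titles, and whether same-numbered libraries were prepared together is not given in the sources used here. Their deviations showed a correlation of 0.023 over 10141 genes, which does not test whether part of the genes share a batch effect. With a replicate block, 3626 genes, 8 members higher and 14 lower were called, beside 3006 genes, 7 higher and 13 lower without it. The legacy fit, the default of this edgeR version, was added after seeing the data, when the newer fit was kept to follow earlier processing of these data; it gave 6 members higher and 12 lower. The antennal genes Obp19a, Obp59a, Obp69a and Obp84a had under 100 counts in each library, and all results rest on 2 libraries per group.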
